A study of Mus musculus with 9 samples.

Results

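Complement is the set of plasma proteins, receptors and regulators that marks surfaces for clearance and can build a pore in a target membrane, and hepatocytes make most of its soluble proteins. The complement genes described here were taken from a list of 35 genes (components of the classical, lectin, alternative and terminal steps, regulators, and anaphylatoxin receptors). A gene entered when the array had a probe set annotated with that symbol and no other. This held for 32 of the 35, among 19938 genes measured in the same way: 6 of 7 classical, 5 of 5 lectin, 2 of 4 alternative and 7 of 7 terminal genes, 10 of 10 regulators and 2 of 2 receptors. C1s, C3 and Cfd, which encode a C1 protease, the central component and factor D, had no probe set of their own listed symbol and were not analysed here under those names. None of the 32 genes had more than 1 probe set.

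The cascade has 3 entry routes. In the classical route C1q recognises antibody or other ligands, and the protease C1r activates C1s, which cleaves C4 and C2. In the lectin route mannose-binding lectins and ficolins carry the MASP proteases that do the same, and in the alternative route factor B and factor D amplify C3 cleavage while properdin holds the convertase together. All routes meet at C3 and C5, after which C5b, C6, C7, C8 and C9 assemble into the membrane attack complex. In liver the C1q chains come chiefly from macrophages, whereas hepatocytes make most of the proteases and terminal components.

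Liver RNA was measured on 9 arrays, 3 in each of 3 groups, labelled as biological replicates and taken as 1 mouse each. The study had 6 male mice per group. N-control mice were wildtype C57BL/6J given tap water. OB-control mice were B6.V-Lepob/J (ob/ob), an obese line that lacks functional leptin, and also received tap water. OB-TUDCA mice were ob/ob mice that received tauroursodeoxycholic acid (TUDCA), a taurine-conjugated bile acid, at 500 mg/kg 2 times a day. All 3 groups were 6 weeks old at the start, were gavaged 2 times a day for 3 weeks, ate normal chow and were fasted for 8 h before the liver was taken. The ob/ob mutation is carried in every cell, and genotype and the obesity that comes with it cannot be told apart in the wildtype comparison. Values are log2 signals, on which a difference of 1 is a doubling. Signals of different genes come from different probes and were not compared with each other.

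The arrays were alike in overall level, with median log2 signals from 4.502 to 4.579 and Pearson correlations from 0.981 to 0.990 within groups across all probe sets. Hepatocyte markers were high on every array, with a mean log2 signal over 8 genes from 12.08 to 12.28. N-control replicate 2 stood apart in 1 respect. The mean log2 signal of 11 pancreatic acinar genes was 11.03 there and between 4.07 and 4.70 on the other 8 arrays, so comparisons with N-control are also given without that array. Whole liver was used, so fewer cells of a type and less RNA per cell cannot be told apart.

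The genes that carried the largest differences were terminal components C6, C8a and C8b and the classical protease C1ra. Bases upstream of these 4 genes are shown because their differences were the largest, a choice made with the values known. All 4 had lower signals on every ob/ob array than on every N-control array. The same held for Hc, C7 and Cd55, with smaller differences. Each run is the part of a window of 250 bases before a start site that lies outside the annotated gene. For C1ra and C8b it is the whole window. For C6 and C8a the start site used lies inside the gene as annotated, and only the 107 and 161 bases farthest from it are printed. The sequences are from RefSeq (GRCm38.p6), read 5′ to 3′ on the gene's strand, and capitals mark a match to the STAT palindrome described after them.
C6, chr15:4726960-4727066, plus strand: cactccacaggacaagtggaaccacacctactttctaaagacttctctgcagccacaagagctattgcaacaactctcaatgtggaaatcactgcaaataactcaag
C8a, chr4:104876488-104876648, minus strand: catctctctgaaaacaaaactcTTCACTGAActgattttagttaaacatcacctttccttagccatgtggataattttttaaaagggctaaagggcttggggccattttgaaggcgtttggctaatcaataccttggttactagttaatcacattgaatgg
C8b, chr4:104766067-104766316, plus strand: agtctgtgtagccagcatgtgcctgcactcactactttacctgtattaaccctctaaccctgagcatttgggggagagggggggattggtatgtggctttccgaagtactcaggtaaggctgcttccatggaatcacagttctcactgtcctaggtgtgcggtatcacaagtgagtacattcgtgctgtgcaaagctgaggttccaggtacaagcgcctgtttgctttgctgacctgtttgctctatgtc
C1ra, chr6:124512371-124512620, plus strand: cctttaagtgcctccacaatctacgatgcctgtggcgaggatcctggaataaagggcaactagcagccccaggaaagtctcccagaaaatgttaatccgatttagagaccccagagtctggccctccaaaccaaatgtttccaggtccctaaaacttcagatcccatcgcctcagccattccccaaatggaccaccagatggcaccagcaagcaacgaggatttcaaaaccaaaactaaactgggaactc

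Windows of 250 bases before the start were found for 24 of the 32 genes and were searched on both strands for 5 motifs of factors active in liver. The STAT palindrome TTCNNNGAA was in the windows of C7, C8a, Cpn2 and Masp2 (4 of 24) and in 7.02% of the 32851 windows of all genes. In C8a the match began 228 bases before the start site used for the window, within the printed bases. The C/EBP motif TTGCNNAA was in the windows of C9 and Cpn2 and in 9.56% of all windows. The NF-kB core, GGG and CC with 5 free bases between them, was in 9 of 24 and in 45.8% of all windows. The HNF1 palindrome, with 1 free base at its centre, and the HNF4 half-site pair CAAAGTCCA were in none of the 24 windows, and in 0.00913% and 0.384% of all windows. The windows of C6, C8b and C1ra held no match to any of the 5 motifs. C8a and C8b are neighbours on chromosome 4 with 0 protein-coding genes between them, and C6 and C7 lie on chromosome 15 with only Mroh2b between them.

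The comparison of OB-control with N-control asks how the ob/ob liver differs from wildtype. The mean log2 signal was lower in OB-control for 25 of the 32 complement genes and higher for 7, where 42.9% of all genes were lower and 57.0% higher. C6, C8a and C1ra fell and Cd59a, a membrane inhibitor of pore formation, rose. These 4 calls rest on limma with Benjamini-Hochberg adjustment over all genes at an adjusted p under 0.05, at which 0.948% of all genes were called (0.492% lower and 0.456% higher). The groups of arrays did not overlap for 9 lower and 2 higher complement genes, against 6.77% and 8.49% of all genes. At an unadjusted p under 0.05 there were 10 lower and 2 higher, against 5.59% and 6.55% of all genes. The median log2 difference was -0.13 over the 32 genes and 0.02 over all genes. Without N-control replicate 2 the mean was still lower for 25 of 32 genes, but the call held only for C6. The groups then did not overlap for 10 lower and 3 higher genes, with no share over all genes taken. C8a, C1ra and Cd59a differed by -1.69, -1.37 and 0.57 in that fit. Over all genes 67 were called there, against 189 with all arrays. Without N-control replicate 1 instead, 60 of all genes and 1 complement gene were called. With each array's median subtracted 27 of 32 were lower, and after a further quantile normalization 23.

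The largest differences between OB-TUDCA and OB-control were smaller than those between OB-control and N-control. Log2 differences of the 32 genes ran from -0.46 to 0.80 in the former and from -2.81 to 0.51 in the latter. Against OB-control, the OB-TUDCA mean was higher for 23 of the 32 genes and lower for 9, where 53.6% of all genes were higher and 46.3% lower, with a median log2 difference of 0.17 over the 32 genes and 0.01 over all genes. None of the 32 was called by limma, against 0.301% of all genes (0.115% higher and 0.186% lower), and 8 higher and 1 lower had an unadjusted p under 0.05, against 6.26% and 5.72% of all genes. The groups did not overlap for 5 higher and 3 lower genes, against 7.26% and 6.53% of all genes. Against N-control, the OB-TUDCA mean was lower for 17 and higher for 15, where 40.3% of all genes were lower and 59.6% higher. C6 and C1ra fell and C5ar1 rose, where 3.24% of all genes were called (1.89% lower and 1.35% higher), and the groups did not overlap for 12 lower and 3 higher genes, against 8.95% and 11.8% of all genes. At an unadjusted p under 0.05 there were 9 lower and 5 higher, against 8.15% and 10.4% of all genes. The split of 17 and 15 was not stable to scaling, with 21 of 32 lower after subtraction of each array's median and 16 after a further quantile normalization. Without N-control replicate 2 the mean was lower for 18 and higher for 13. The groups then did not overlap for 12 lower and 5 higher genes, with no share over all genes taken. C6 and C5ar1 passed the test in that fit while C1ra did not (adjusted p = 0.0782). Over all genes 245 were called there, against 646 with all arrays. The 3 comparisons share arrays and are not independent.

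**Figure D1:**
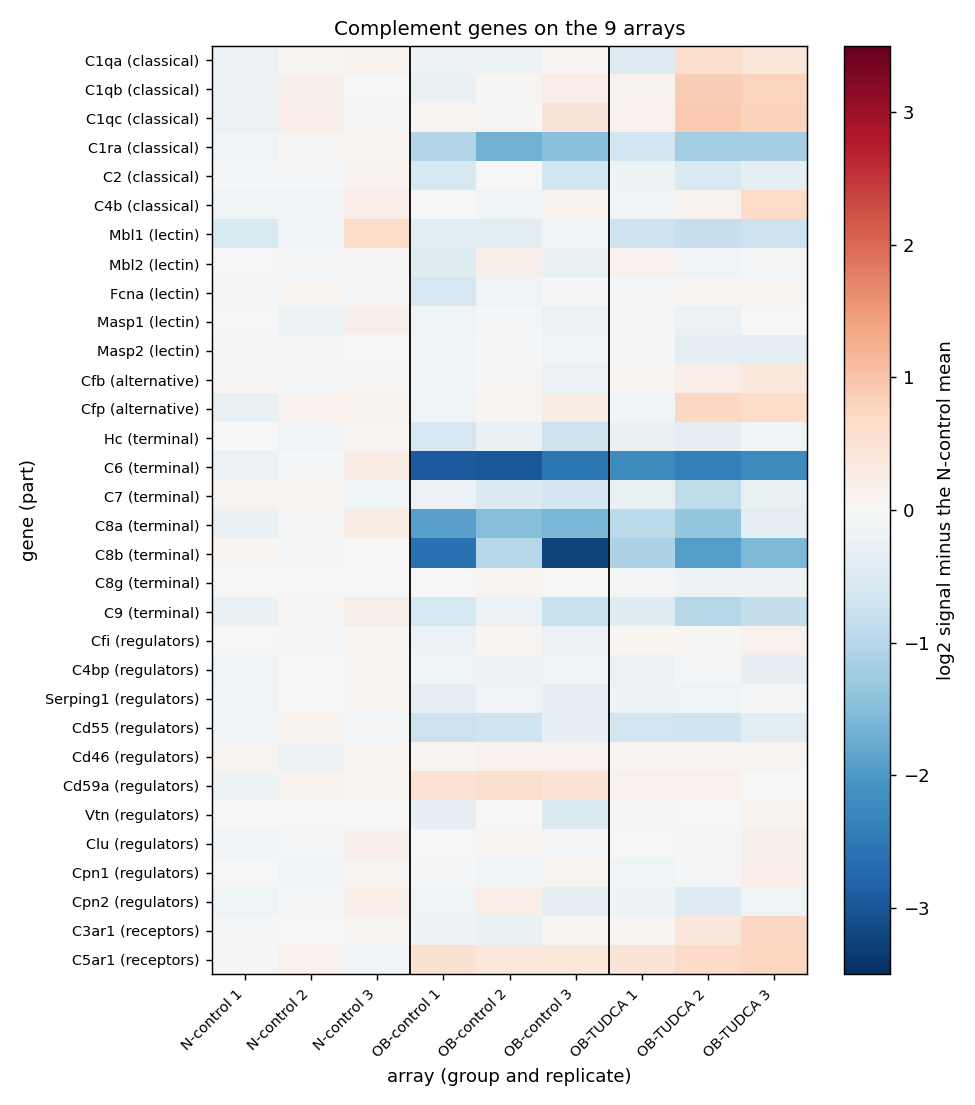
Log2 signal minus the N-control mean for the 32 complement genes (rows, with their part of the cascade) on the 9 arrays (columns), with red above and blue below the N-control mean. C6, C8a, C8b and C1ra are the rows furthest below the N-control mean when the arrays of each ob/ob group are averaged. On OB-TUDCA replicate 3 alone, C9 and Mbl1 are a deeper blue than C8a.

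In the terminal part of the cascade, of 7 genes, 6 had OB-control means below those of N-control, and of these C6 and C8a fell, with a median log2 difference of -0.53. In OB-TUDCA all 7 had every array below every N-control array, and only C6 passed the test. C6 encodes the protein that binds C5b and starts the pore. On the arrays its log2 signal was 9.41, 9.53 and 9.86 on the N-control arrays, 6.68, 6.63 and 7.05 on the OB-control arrays, and 7.38, 7.21 and 7.38 on the OB-TUDCA arrays. The 3 groups did not overlap, with OB-TUDCA above OB-control and both far below N-control. C6 fell 7.03-fold in OB-control (log2 difference -2.81, SE 0.14, limma adjusted p = 2.50e-05) and 4.85-fold in OB-TUDCA (log2 difference -2.28, adjusted p = 0.000122). Without N-control replicate 2 the OB-control difference was -2.85 (adjusted p = 0.000429). The OB-TUDCA minus OB-control log2 difference was 0.54 (95% interval 0.22 to 0.86, adjusted p = 0.153).

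C8 is made of 3 chains, and C8a and C8b encode the alpha and beta chains that join the membrane pore. C8a had log2 signals of 10.35, 10.53 and 10.83 in N-control, 8.66, 9.08 and 8.97 in OB-control, and 9.63, 9.23 and 10.25 in OB-TUDCA. Again the 3 groups did not overlap and OB-TUDCA lay between the others. C8a fell 3.18-fold in OB-control (log2 difference -1.67, SE 0.24, limma adjusted p = 0.0149). That call did not hold without any 1 of N-control replicates 1, 2 and 3 or OB-control replicates 1 and 3, with an adjusted p of up to 0.0810. OB-TUDCA differed from OB-control by 0.80 (95% interval 0.26 to 1.34, adjusted p = 0.202) and from N-control by -0.87 (adjusted p = 0.0926).

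C8b varied most within OB-control. Its log2 signal was 11.38, 11.24 and 11.34 in N-control, 8.70, 10.31 and 8.08 in OB-control, and 10.20, 9.40 and 9.74 in OB-TUDCA. Both ob/ob groups lay below every N-control array, and OB-control replicate 2 was higher than all OB-TUDCA arrays. The OB-control minus N-control log2 difference was -2.29 (SE 0.47, limma adjusted p = 0.0640). Without OB-control replicate 2 it was -2.93 and passed the test (adjusted p = 0.00197). It did not pass with any other array left out (adjusted p up to 0.237). In all, the OB-control difference passed under 3 of 17 alternatives, including the filter on low signal and arrayWeights (limma adjusted p = 0.042 and 0.018). OB-TUDCA differed from N-control by -1.54 (adjusted p = 0.120). With 1 array left out that adjusted p ran from 0.0104 (without OB-control replicate 2) to 0.310. From OB-control, OB-TUDCA differed by 0.75 (95% interval -0.30 to 1.80). That last difference was 1.39 without OB-control replicate 2 (adjusted p = 0.0656) and 0.27 without OB-control replicate 3. OB-control replicate 2 was the highest array of its group in 14 of the 25 complement genes with a lower OB-control mean, Hc, C8a, C8b and C9 included.

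The third C8 chain, C8g, encodes the gamma chain, a lipocalin that the pore can do without. C8g differed little between the controls, at 10.40, 10.44 and 10.42 in N-control and 10.40, 10.48 and 10.43 in OB-control (log2 difference 0.02, 95% interval -0.14 to 0.18). In OB-TUDCA it was 10.37, 10.23 and 10.24, below both other groups with no overlap, but neither difference passed the test (-0.16 from OB-control, adjusted p = 0.422, and -0.14 from N-control).

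Hc encodes C5, whose cleavage starts the terminal steps. Log2 signals of Hc were 11.60, 11.51 and 11.71 in N-control, 11.03, 11.38 and 10.85 in OB-control, and 11.37, 11.28 and 11.45 in OB-TUDCA. Every ob/ob array lay below every N-control array, and the ob/ob groups overlapped. The OB-control difference was -0.52 (limma adjusted p = 0.126). With 1 array left out that adjusted p ran from 0.0230 (without OB-control replicate 2) to 0.351.

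C7, which anchors the growing complex in the membrane, gave 4.58, 4.55 and 4.32 in N-control, 4.28, 4.01 and 3.81 in OB-control, and 4.24, 3.59 and 4.24 in OB-TUDCA, near the low end of the scale, where the third of all genes with the dimmest mean signal ends at 3.98. Both ob/ob groups lay below N-control (log2 differences -0.45 and -0.46, adjusted p = 0.365 and 0.225). C9, which polymerises to complete the pore, gave 9.89, 10.16 and 10.34 in N-control, 9.53, 9.93 and 9.35 in OB-control, and 9.71, 9.15 and 9.29 in OB-TUDCA. OB-control overlapped N-control and OB-TUDCA did not. The OB-TUDCA minus N-control log2 difference of C9 was -0.75 (limma adjusted p = 0.0710). With 1 array left out that adjusted p ran from 0.0366 (without OB-TUDCA replicate 1) to 0.220.

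**Figure D2:**
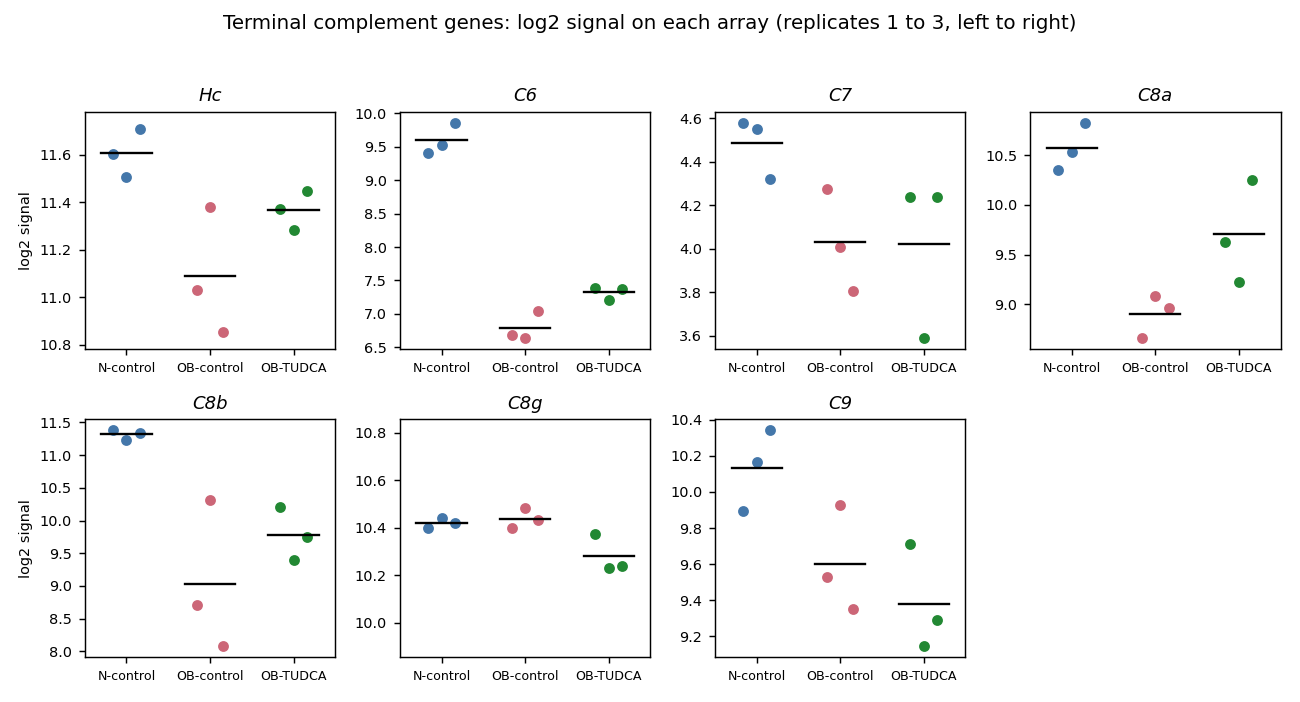
Log2 signal of the 7 terminal complement genes on each array (points, replicates 1 to 3 from left to right), with a line at each group mean. C6 shows 3 separate groups (9.41 to 9.86, 6.63 to 7.05 and 7.21 to 7.38), and OB-control replicate 2 sits high in C8b at 10.31. The vertical axes differ between genes and do not start at 0.

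The OB-TUDCA mean lay between the other group means for 12 of the 32 complement genes, above both for 13 and below both for 7, where the shares over all genes were 30.3%, 41.3% and 28.3%. Of the 7 terminal genes, Hc, C6, C8a and C8b lay between and C7, C8g and C9 lay below both.

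In the classical route, C1ra was the only one of 6 genes called in any comparison. C1ra encodes the C1r protease, which activates C1s. Log2 signals of C1ra were 6.98, 7.15 and 7.19 in N-control, 6.09, 5.42 and 5.64 in OB-control, and 6.45, 5.89 and 5.91 in OB-TUDCA. Both ob/ob groups lay below N-control and overlapped each other. C1ra fell 2.62-fold in OB-control (log2 difference -1.39, SE 0.19, limma adjusted p = 0.0120) and 2.04-fold in OB-TUDCA (-1.03, adjusted p = 0.0228), and OB-TUDCA differed from OB-control by 0.36 (adjusted p = 0.502). The OB-control call did not hold without N-control replicate 1 or 2 or OB-control replicate 3 (adjusted p up to 0.0642), and the OB-TUDCA call did not hold without any 1 of the N-control arrays or OB-TUDCA replicates 2 and 3 (up to 0.0972).

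C1ra has a close copy, C1rb, so its probe set may also take up signal from the copy. A probe set annotated with both C1ra and C1rb, outside the rule and not tested, gave 10.001, 9.85 and 10.02 in N-control, 8.91, 8.73 and 8.68 in OB-control, and 8.95, 8.86 and 9.05 in OB-TUDCA. Its group means differed by -1.19 between OB-control and N-control and by 0.18 between OB-TUDCA and OB-control. The neighbouring gene C1s1, the current symbol of a mouse C1s gene and the partner protease of C1r, was also outside the rule and was looked up after the values of C1ra were seen. Log2 signals of C1s1 were 9.46, 9.32 and 9.42 in N-control, 8.84, 8.38 and 8.78 in OB-control, and 8.58, 8.68 and 8.78 in OB-TUDCA. C1s1 fell in OB-control (log2 difference -0.73, adjusted p = 0.0286) and in OB-TUDCA (-0.72, adjusted p = 0.0156), with 0.01 between the ob/ob groups. The OB-control call of C1s1 held under 10 of 17 alternatives (adjusted p up to 0.127), and the OB-TUDCA call under 15 of 17.

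C1qa, C1qb and C1qc encode the 3 chains of C1q and lie together on chromosome 4. Their OB-control and N-control arrays overlapped, with log2 differences of -0.09, 0.02 and 0.20. For C1qb, OB-TUDCA replicates 2 and 3 gave 8.61 and 8.53 and replicate 1 gave 7.85, against 7.51 to 7.97 in OB-control. The same pair of arrays was high for C1qc, at 8.41 and 8.28 with replicate 1 at 7.64, against 7.28, 7.71 and 7.45 in N-control and 7.58, 7.52 and 7.95 in OB-control. For C1qa they gave 7.83 and 7.63 with replicate 1 at 6.76. The OB-TUDCA minus OB-control log2 differences were 0.29, 0.57 and 0.43 for C1qa, C1qb and C1qc, none past the test (limma adjusted p = 0.694, 0.285 and 0.446). The OB-TUDCA minus N-control log2 differences were 0.20, 0.59 and 0.63, again none past the test (adjusted p = 0.724, 0.161 and 0.144). Without OB-TUDCA replicate 1 those of C1qb and C1qc were 0.83 and 0.86 and passed (adjusted p = 0.0245 and 0.0283). That of C1qa was 0.52 and did not (adjusted p = 0.0735). C1qb and C1qc did not pass with any other array left out (adjusted p up to 0.396 and 0.376). With other arrays left out C1qa went as low as -0.02.

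Macrophage markers are given beside them. Over 10 Kupffer cell and macrophage markers the mean log2 signal was 6.81 to 7.08 in N-control, 6.74 to 7.14 in OB-control, and 6.88, 7.41 and 7.54 on OB-TUDCA replicates 1, 2 and 3. In OB-TUDCA 8 of the 10 had a higher mean than in OB-control (median log2 difference 0.24), against 53.6% of all genes. By limma 0 were called, and 2 were higher at an unadjusted p under 0.05, against 6.26% of all genes. The differences of the 10 ran from -0.08 to 0.92, with Cd163 at 0.92, Marco at 0.71, Cd68 at 0.55 and Cd5l at 0.42 at the upper end and Adgre1 at -0.01 and Clec4f at -0.08 at the lower. The part of macrophage number in the C1q values was not tested.

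C2, the serine protease of the classical and lectin convertases, gave 7.81, 7.84 and 7.99 in N-control, 7.31, 7.87 and 7.20 in OB-control, and 7.71, 7.34 and 7.57 in OB-TUDCA. OB-TUDCA lay below N-control without overlap (log2 difference -0.34, adjusted p = 0.329) and OB-control replicate 2 lay within the N-control range. C4b, which C1s and the MASP proteases cleave, gave 10.39 to 10.76 in N-control, 10.35 to 10.62 in OB-control and 10.39 to 11.19 in OB-TUDCA, and these overlapped.

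**Figure D3:**
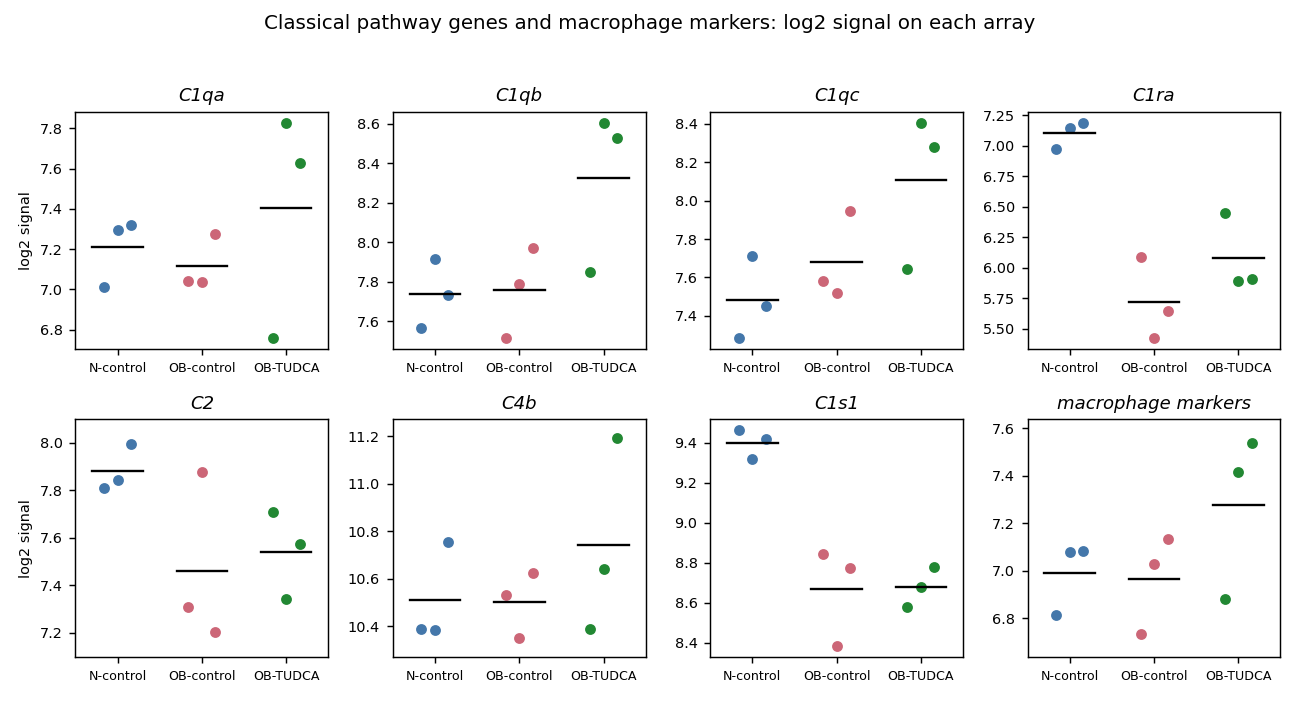
Log2 signal on each array (points, replicates 1 to 3 from left to right; lines are group means) of the 6 classical genes and of C1s1, and the mean log2 signal of 10 macrophage markers. C1ra and C1s1 are below every N-control array in both ob/ob groups, and OB-TUDCA replicates 2 and 3 are the high points of C1qa, C1qb, C1qc and the macrophage markers.

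In the lectin route, none of the 5 genes was called in any comparison, and their log2 differences between OB-control and N-control ran from -0.30 to -0.09, all lower. At an unadjusted p under 0.05 there were 0 of 5 in OB-control against N-control, 1 in OB-TUDCA against OB-control (Fcna) and 2 in OB-TUDCA against N-control (Mbl1 and Masp2), to be read against the shares of all genes given above for that threshold. Mbl1 encodes mannose-binding lectin A. Its log2 signal was 7.82, 8.24 and 8.99 in N-control, 7.95, 7.96 and 8.23 in OB-control, and 7.62, 7.54 and 7.59 in OB-TUDCA. All OB-TUDCA arrays were below all others, and N-control spread widely. The log2 differences of OB-TUDCA were -0.46 from OB-control and -0.77 from N-control (adjusted p = 0.494 and 0.130).

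Fcna, ficolin A, gave 7.03, 7.18 and 7.03 in N-control, 6.50, 6.93 and 7.02 in OB-control, and 7.03, 7.14 and 7.19 in OB-TUDCA. OB-control lay below both other groups, by a narrow margin for replicate 3 (log2 differences -0.27 from N-control and 0.31 for OB-TUDCA over OB-control, adjusted p = 0.451 and 0.383). Masp2, the protease that cleaves C4 and C2, gave 10.02, 10.09 and 10.07 in N-control, 9.97, 10.03 and 9.90 in OB-control, and 10.02, 9.74 and 9.75 in OB-TUDCA, where the highest array lay just below N-control (log2 difference -0.23, adjusted p = 0.222). Mbl2 and Masp1 overlapped in all comparisons, with log2 differences from -0.16 to 0.14.

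In the alternative route, Cfb and Cfp, the measured pair of the 4 listed genes, were not called in any comparison. Cfb encodes factor B, the protease of the alternative convertase, and lies beside C2 on chromosome 17. Its log2 signal was 11.62, 11.53 and 11.63 in N-control, 11.49, 11.63 and 11.38 in OB-control, and 11.66, 11.81 and 11.97 in OB-TUDCA. All OB-TUDCA arrays were above all others (log2 differences 0.32 from OB-control and 0.22 from N-control, adjusted p = 0.224 and 0.268). Cfp encodes properdin, which leukocytes make. It gave 6.63, 7.04 and 7.03 in N-control, 6.76, 6.98 and 7.15 in OB-control, and 6.82, 7.63 and 7.55 in OB-TUDCA, high on the same pair of arrays as the C1q genes. Its OB-TUDCA minus OB-control log2 difference was 0.37 (95% interval -0.11 to 0.85).

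Among the regulators, the OB-control mean was below the N-control mean for 8 of 10 genes. Cd59a rose and none fell. Cd59a encodes a membrane-anchored protein that blocks C9 from completing the pore. Its log2 signal was 8.71, 9.005 and 8.95 in N-control, 9.38, 9.44 and 9.37 in OB-control, and 9.04, 9.04 and 8.86 in OB-TUDCA. The OB-control arrays were above all 6 others, and N-control and OB-TUDCA overlapped. Cd59a was 1.43-fold higher in OB-control than in N-control (log2 difference 0.51, SE 0.09, limma adjusted p = 0.0428). This call held under 5 of 17 alternatives and was lost when any 1 array was left out (adjusted p from 0.0535 to 0.152). OB-TUDCA differed from OB-control by -0.42 (95% interval -0.63 to -0.21, adjusted p = 0.1005) and from N-control by 0.09 (95% interval -0.12 to 0.30).

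Cd55, decay-accelerating factor, speeds the breakdown of convertases on cells. It gave 5.57, 5.81 and 5.63 in N-control, 4.93, 4.97 and 5.38 in OB-control, and 5.03, 4.98 and 5.28 in OB-TUDCA. Every ob/ob array was below every N-control array, and the ob/ob groups had nearly equal means. The log2 differences from N-control were -0.58 in OB-control (adjusted p = 0.110) and -0.57 in OB-TUDCA (adjusted p = 0.0565). Both passed without OB-control replicate 3 (adjusted p = 0.0454 and 0.0281). In all, the OB-control difference passed under 1 of 17 alternatives and the OB-TUDCA difference under 6. With another array left out the adjusted p rose as high as 0.337 in OB-control and 0.185 in OB-TUDCA.

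Serping1, the C1 inhibitor that inactivates C1r, C1s and the MASP proteases, gave 11.84, 11.94 and 11.996 in N-control, 11.62, 11.80 and 11.62 in OB-control, and 11.76, 11.78 and 11.89 in OB-TUDCA. OB-control lay below N-control (log2 difference -0.25, adjusted p = 0.250) and OB-TUDCA overlapped both. The remaining regulators overlapped between groups in all 3 comparisons. Vtn, vitronectin, had its largest log2 difference between OB-TUDCA and OB-control at 0.29 (adjusted p = 0.371). Cfi, which cleaves C3b and C4b, and C4bp, its cofactor for C4b, ran from -0.18 to 0.21. Clu, clusterin, and Cpn1 and Cpn2, the carboxypeptidase N subunits that trim anaphylatoxins, ran from -0.26 to 0.06. Cd46, whose expression in mice is largely limited to the testis, was the only complement gene in the third of all genes with the dimmest mean signal, at a mean of 3.07, and is at a level where no order can be read.

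Both receptor genes were measured. C5ar1 and C3ar1 encode the receptors for the anaphylatoxins C5a and C3a, carried mainly by myeloid cells. C5ar1 gave log2 signals of 4.14, 4.32 and 4.06 in N-control, 4.70, 4.54 and 4.54 in OB-control, and 4.63, 4.84 and 4.92 in OB-TUDCA. Every ob/ob array was above every N-control array, and the ob/ob groups overlapped. C5ar1 rose 1.53-fold in OB-TUDCA over N-control (log2 difference 0.62, SE 0.10, limma adjusted p = 0.0160), a call that held under 13 of 17 alternatives and was lost without N-control replicate 1 or OB-TUDCA replicate 2 or 3 and in a fit to the 2 groups alone. In OB-control the difference from N-control was 0.41 (adjusted p = 0.131). The N-control signals of C5ar1 were close to 3.98, the end of the dimmest signals, where differences may be understated.

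C3ar1 gave 5.84, 5.87 and 5.95 in N-control, 5.72, 5.66 and 5.95 in OB-control, and 5.98, 6.29 and 6.62 in OB-TUDCA. All OB-TUDCA arrays were above all others, by a narrow margin for replicate 1. The log2 differences were 0.52 from OB-control (95% interval 0.19 to 0.86, adjusted p = 0.181) and 0.41 from N-control (adjusted p = 0.183). With 1 array left out the latter adjusted p ran from 0.0474 (without OB-TUDCA replicate 1) to 0.392. The macrophage marker means given with C1q apply to both receptors. Over 7 neutrophil markers the mean log2 signal was 3.25 to 3.39 in N-control, 3.38 to 3.45 in OB-control and 3.37 to 3.79 in OB-TUDCA. No neutrophil marker was called by limma in any comparison. At an unadjusted p under 0.05 there were 0, 0 and 3. The 3 were higher in OB-TUDCA against N-control, where 10.4% of all genes were. The part of either cell type in the receptor values was not tested.

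**Figure D4:**
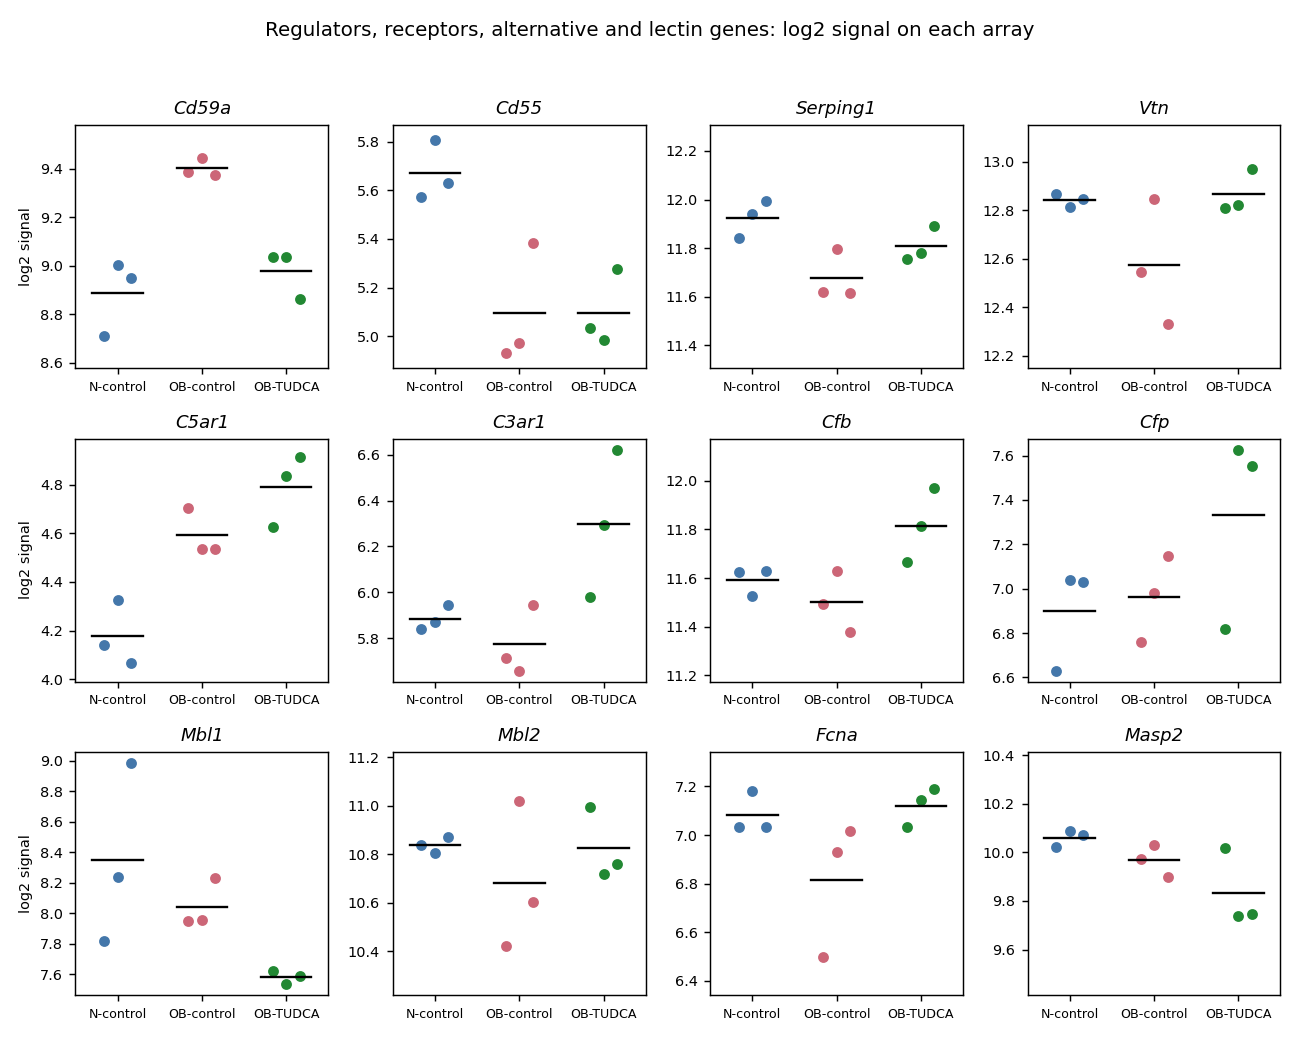
Log2 signal on each array (points, replicates 1 to 3 from left to right; lines are group means) of 12 regulator, receptor, alternative and lectin genes. Cd59a is highest on the 3 OB-control arrays (9.37 to 9.44), Cd55 is lower on all 6 ob/ob arrays than in N-control, and Mbl1 is lowest on the OB-TUDCA arrays.

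**Figure D5:**
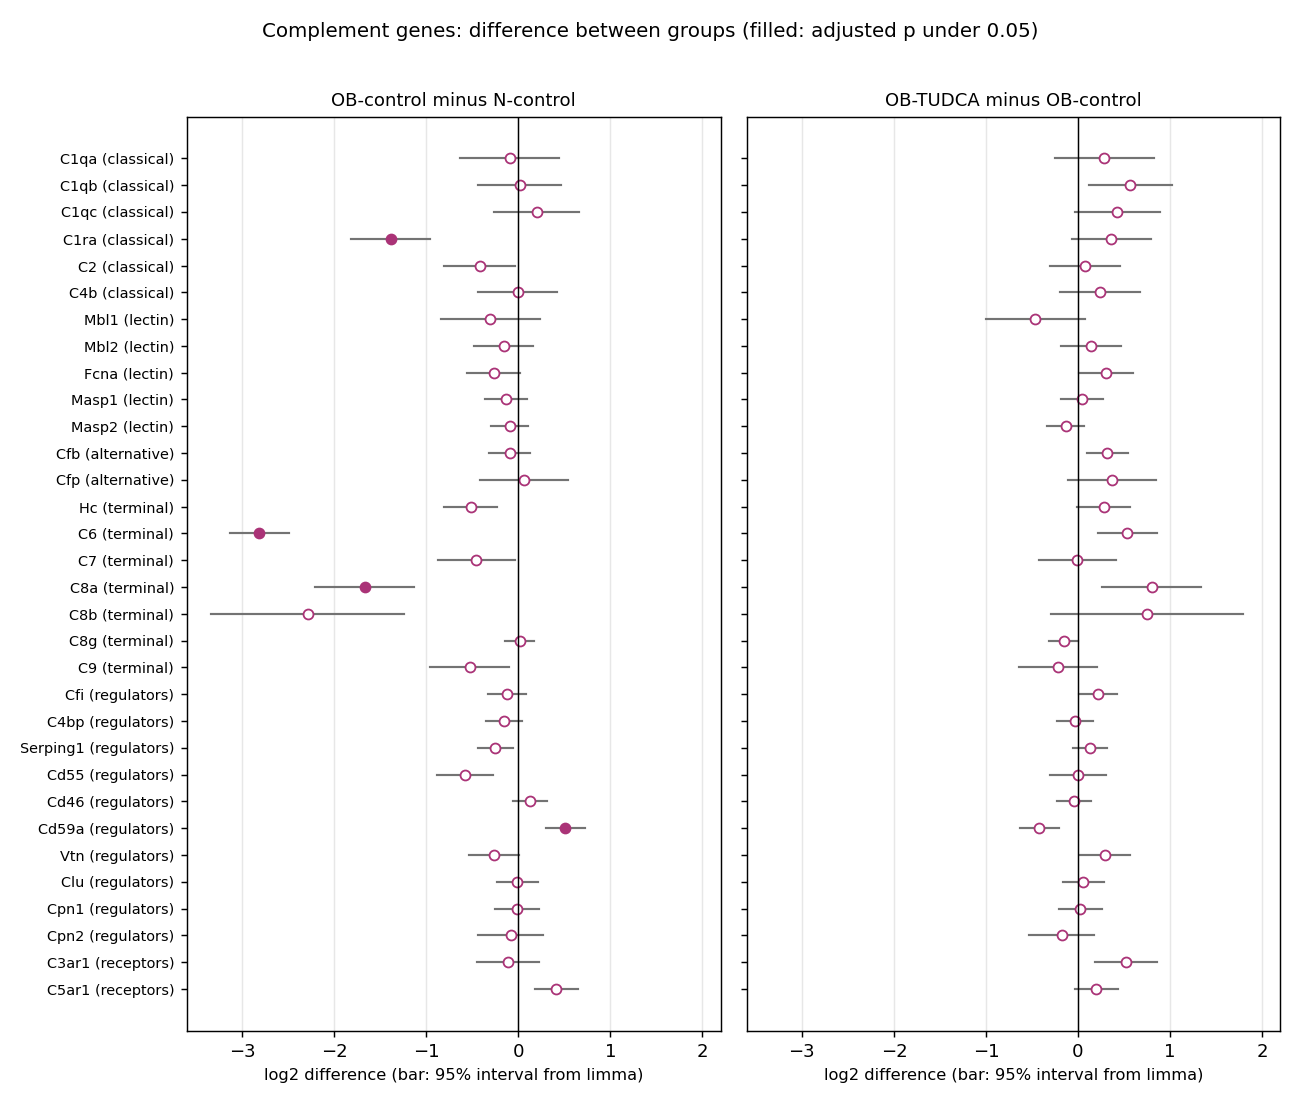
Log2 difference with its 95% interval from limma for each of the 32 complement genes, OB-control minus N-control on the left and OB-TUDCA minus OB-control on the right, with filled points for an adjusted p under 0.05. C1ra, C6, C8a and Cd59a are filled on the left and no gene is filled on the right.

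Of 23 other genes of the pathway (factor H and its relatives, collectins, complement receptors and membrane regulators), 18 were measured. In OB-control against N-control 1 fell and 0 rose, and in OB-TUDCA against OB-control 1 rose and 0 fell. In OB-TUDCA against N-control 1 rose and 1 fell. Over all genes 0.948%, 0.301% and 3.24% were called in these comparisons, in the same order. The gene that fell was Susd4, a sushi-domain protein that restrains convertases. Log2 signals of Susd4 were 5.48, 6.01 and 5.90 in N-control, 4.30, 4.09 and 3.83 in OB-control, and 4.11, 3.79 and 3.76 in OB-TUDCA. Both ob/ob groups lay below N-control (log2 differences -1.72 and -1.91, limma adjusted p = 0.00194 and 0.000965), and both calls held under all 17 alternatives. Some of the ob/ob arrays lay under 3.98, where the third of all genes with the dimmest mean signal ends, so these differences may be understated. Between the ob/ob groups Susd4 differed by -0.19 (adjusted p = 0.718).

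The gene that rose was Cd93, a membrane glycoprotein of endothelial and myeloid cells once described as a C1q receptor. It gave 5.47, 5.10 and 5.79 in N-control, 5.88, 5.74 and 6.11 in OB-control, and 6.85, 7.63 and 7.76 in OB-TUDCA. The OB-TUDCA arrays were above all 6 others. The log2 difference was 1.96 from N-control (limma adjusted p = 0.00532, called under all 17 alternatives) and 1.51 from OB-control, where the adjusted p sat at the threshold of 0.05 and the call held under 6 of 17 alternatives (adjusted p up to 0.192). Over 7 sinusoidal endothelial markers the mean log2 signal was 7.40 to 7.49 in N-control, 7.22 to 7.46 in OB-control and 7.28 to 7.45 in OB-TUDCA. In OB-TUDCA against N-control, where 1.35% of all genes were called higher and 1.89% lower, 1 of these 7 rose and 3 fell. Their part in the Cd93 values was not tested.

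Acute phase genes, coagulation genes and hepatocyte markers were set beside the complement genes. None of 20 acute phase genes was called by limma in OB-control against N-control or in OB-TUDCA against OB-control. At an unadjusted p under 0.05, 4 were higher and 5 lower in the first, against 6.55% and 5.59% of all genes. In the second 10 were higher and 1 lower, against 6.26% and 5.72% of all genes. In OB-TUDCA against N-control 5 rose and 1 fell, against 1.35% and 1.89% of all genes. The mean log2 signal of the acute phase genes was 9.41 to 9.61 in N-control, 9.59 to 9.98 in OB-control and 9.80 to 10.64 in OB-TUDCA. For 16 of 18 coagulation genes the OB-control mean was below that of N-control, against 42.9% of all genes, with 0 called by limma. At an unadjusted p under 0.05, 1 was higher and 6 lower, against 6.55% and 5.59% of all genes. In OB-TUDCA against N-control 4 fell (F11, F13b, F8 and Hrg), against 1.89% of all genes. The median log2 difference between OB-control and N-control was -0.15 over the coagulation genes and -0.13 over all 32 complement genes. Over the 7 terminal complement genes alone it was -0.53. Over the 8 hepatocyte markers that median was -0.09, with 0 called by limma. At an unadjusted p under 0.05, 2 of them were lower, against 5.59% of all genes.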

How the data were processed

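Liver RNA had been hybridised by the authors to 9 Affymetrix Mouse Gene 1.0 ST arrays (3 groups of 3). The deposited values are log2 signals that the authors made with Affymetrix Expression Console and RMA (background correction, quantile normalization, summary per probe set), per the labels' processing notes; their versions and the genome build are not given in the sources used here. Quantile normalization sets all arrays to 1 distribution, so differences are relative to the other genes. The number of arrays limits the precision.

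Of 35556 probe sets, 21789 carried 1 symbol in the platform annotation, 1621 several and 12146 none. Those with 1 symbol were averaged per symbol (999 of 19938 genes had more than 1). The complement list, the marker lists and the tests were chosen with earlier results of these data known. limma 3.58.1 in R 4.3.3 was fitted to all 9 arrays with 3 group means (lmFit, eBayes, 6 residual and 3.33 prior degrees of freedom), with Benjamini-Hochberg adjustment over 19938 genes and a threshold of 0.05. With 3 arrays against 3 an exact permutation test cannot go below p = 0.1, so none is given. Replicates were labelled as biological and were taken as 1 mouse per array. The p-values set the difference of group means against the spread between arrays within groups. Values on every array are printed for genes past the threshold or without overlap in any comparison and for the 2 largest differences in each part of the cascade. Of the other complement genes, those past the threshold are named. Alternatives were a filter that drops the third of all genes with the dimmest mean signal, a further quantile normalization, median subtraction, trend and robust eBayes, arrayWeights, a fit to 2 groups, single probe sets, the replicate number as a block, the fold limits of the study's methods (1.5-fold lower or 2.3-fold higher) and each array left out. The significance analysis of microarrays that the methods name was not run. The code was tested on simulated data. Figures were drawn with matplotlib 3.10.9 in Python 3.11.15.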

Additional observations from a re-analysis of the deposited data

How the results depend on the processing

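C6 kept its direction and its call in both wildtype comparisons under all 17 alternatives (adjusted p from 6.78e-06 to 0.00271 for OB-control against N-control). No called complement gene changed direction. Counts of called complement genes were 4 for OB-control against N-control (1 to 5 when 1 array was left out, with 1 without N-control replicate 1 or 2 and 2 without N-control replicate 3 or OB-control replicate 1 or 3), 0 for OB-TUDCA against OB-control (0 in all alternatives) and 3 for OB-TUDCA against N-control (1 to 7 when 1 array was left out, with 1 without N-control replicate 1 or OB-TUDCA replicate 2 and 7 without OB-TUDCA replicate 1, 5 with the filter on low signal, 6 by the fold limits). Counts over all genes were 189 for OB-control against N-control (358 with arrayWeights, 65 with the fit to 2 groups, 342 by the fold limits, 60 to 266 with 1 array left out), 60 for OB-TUDCA against OB-control (131 with the filter on low signal, 97 after a further quantile normalization, 0 with the fit to 2 groups, 286 by the fold limits, 0 to 135 with 1 array left out) and 646 for OB-TUDCA against N-control (345 with the fit to 2 groups, 193 to 788 with 1 array left out). The cause of these shifts was not tested. Correlations of same-numbered deviations ran from -0.08 to 0.21, and whether same-numbered arrays belong together was not tested. With the replicate block the counts of complement genes were 3, 0 and 5. Cd59a was lost in the first and C1qb and Cd55 were gained in the last. The counts over all genes with the block were 189, 60 and 871. Uncalled differences changed sign in at least 1 alternative for 8, 6 and 7 of the 32 genes in the 3 comparisons, in the order given.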
